A study of Mus musculus with 8 samples.

Results

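The translation initiation and elongation factors of C2C12 myotubes were compared between cultures that were re-fed and cultures left in spent medium. Members were the probe sets with exactly 1 annotated gene symbol that begins with Eif1 to Eif6 or with Eef1 or Eef2, without the repressor Eif4ebp1 and the synthetase-complex protein Eef1e1. This gave 114 of 22626 probe sets and 50 of 12393 genes. C2C12 is a mouse myoblast line that fuses into myotubes when serum is lowered. All cultures were differentiated in medium with 2% horse serum. The 4 control samples (A to D) had their medium changed every 48 h up to harvest on day 8. In the 4 starved samples (E to H) the medium was not renewed after day 4, so that they spent 4 days without feeding. Each sample was hybridised to 1 Affymetrix mouse array.

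Translation of most messages starts when the eIF4 factors bind the cap at the 5' end and recruit the small ribosomal subunit, which carries eIF3, eIF1, eIF1A and the initiator tRNA held by eIF2. Initiation consumes the GTP of eIF2, and eIF2B reloads it. Kinases that sense amino acid shortage, heme shortage, viral RNA or unfolded proteins phosphorylate eIF2 and thereby block eIF2B, which lowers most protein synthesis while favouring the message of the transcription factor Atf4. Elongation is then carried by eEF1, which delivers charged tRNAs, and by eEF2, which moves the ribosome along and is inhibited by the kinase encoded by Eef2k.

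Signals are log2 intensities after quantile normalization. Differences are starved minus control on that log2 scale, given with limma's standard error, and p-values were adjusted by the Benjamini-Hochberg method across the 13575 probe sets tested. A gene was called at an adjusted p below 0.05, read from the brightest of its tested probe sets. The 3' to 5' log2 ratio of the Gapdh control probe sets was 1.40 in control B, against -0.23 to -0.04 in the other 7 arrays, a measure on which control B stood apart. All 9 myotube markers, among them Acta1, Ckm, Myog and Des, were bright enough to be tested, with a summed linear signal of 58871 to 63037 in control and 56279 to 59133 in starved arrays, and Des was called lower (-0.22) while the other 8 were not called. The summed signal of the 6 smooth muscle markers was 12606 to 13129 in control and 8729 to 9687 in starved arrays, with Myh11 and Cnn1 too dim to test and 3 of the other 4 called lower (Acta2 -0.30, Actg2 -1.75 and Tagln -2.65). That of the 5 measured adipocyte markers was 688 to 769 and 1004 to 1200, with Adipoq and Cidec too dim, and of the 3 tested Lpl was called higher (1.16), while Fabp4 (0.13) and Cebpa (0.04) were not called. Fibroblast marker sums ran from 10859 to 12654 and from 9757 to 11433, with Dcn higher (0.94) and Col1a1 (-1.15) and Pdgfrb (-1.83) lower among the 8 tested markers. Sums ran for 6 macrophage markers from 680 to 804 and from 728 to 1010, and for 4 endothelial markers from 322 to 372 and from 282 to 479. The part of these cell type markers in the results below was not tested, and in whole cultures fewer cells of a type and less RNA per cell cannot be told apart.

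Of the 50 genes 45 were bright enough to be tested, and 5 of these rose in starved myotubes while 0 fell. Over all 8352 genes tested, 4.25% were called higher and 6.94% lower. The members were brighter than these genes, with a higher median log2 signal. No comparison with all genes or all probe sets, here or below, was matched for brightness. The part of brightness in the differing shares was not tested. At an unadjusted p below 0.05, limma gave 11 members higher and 0 lower, against 11.1% and 13.2% of all genes. The 5 were Eif3c and Eif3f of the eIF3 complex, the eIF2 beta subunit Eif2s2, the eIF4A-stimulating factor Eif4b and the nucleotide exchange subunit Eef1b2 of eEF1. Their differences were small, from 0.32 for Eif3f to 0.70 for Eif3c, which corresponds to 1.25-fold and 1.63-fold. In the normalized values the median difference was 0.07 over the 45 members and 0.01 over all genes tested, and 33 members stood above 0 and 12 below, where 52.3% of all genes stood above 0. The starved arrays lay wholly above the control arrays in 10 members and wholly below them in 0, against 8.23% and 10.2% of all genes.

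These calls depend on how the arrays are brought to a common brightness. In the deposited, unscaled intensities the median of all probe sets tested was -0.33 and that of the members was -0.28, 0 members were called higher and 2 were called lower, where all genes gave 0.539% higher and 12.3% lower. At an unadjusted limma p below 0.05 the unscaled counts were 0 higher and 10 lower, against 0.946% and 29.4% of all genes. In these values 4 members stood above 0 and 41 below, and 9.30% of all genes stood above 0. Without control B, 6 of 46 members tested were higher and 0 lower, against 4.44% of all genes higher and 6.31% lower. The same 5 genes were among the 6, and Eif3h was added.

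**Figure D1:**
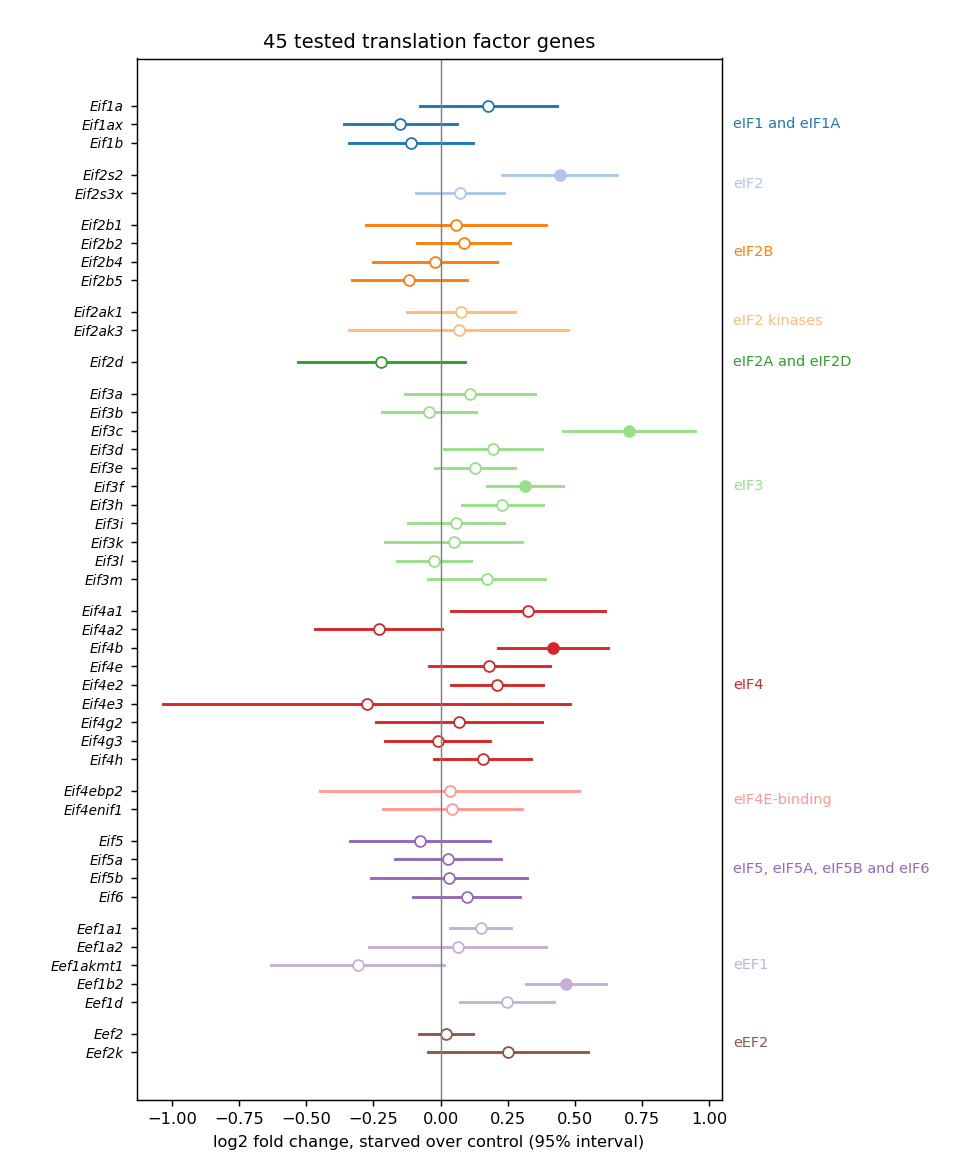
Log2 fold changes (x axis, starved over control, with 95% intervals from limma) of the 45 tested translation factor genes, grouped by complex (y axis, colours); filled points passed an adjusted p of 0.05. The 5 filled points lie between 0.32 and 0.70, and none of the points below 0 is filled.

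The promoters shown are those of the 5 genes called higher in the normalized values, so that their shared direction follows from the choice. Each line gives the 150 bases before the annotated transcription start from RefSeq (GRCm38.p6), 5' to 3', with capitals for the only motif found among those searched.
Eef1b2 (chr1:63176681-63176830, plus strand): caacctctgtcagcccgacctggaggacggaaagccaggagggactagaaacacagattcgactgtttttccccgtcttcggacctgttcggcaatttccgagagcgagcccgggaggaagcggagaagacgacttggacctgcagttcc
Eif2s2 (chr2:154892907-154893056, minus strand): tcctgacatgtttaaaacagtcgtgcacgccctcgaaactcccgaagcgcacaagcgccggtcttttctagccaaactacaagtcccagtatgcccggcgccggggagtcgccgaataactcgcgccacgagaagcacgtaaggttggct
Eif3c (chr7:126566367-126566516, minus strand): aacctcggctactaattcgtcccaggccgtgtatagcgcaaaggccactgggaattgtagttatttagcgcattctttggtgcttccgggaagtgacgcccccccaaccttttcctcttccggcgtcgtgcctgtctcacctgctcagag
Eif3f (chr7:108934265-108934414, plus strand): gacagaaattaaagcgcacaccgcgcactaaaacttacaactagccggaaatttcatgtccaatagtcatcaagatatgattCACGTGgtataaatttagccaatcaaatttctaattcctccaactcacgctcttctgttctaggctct
Eif4b (chr15:102073623-102073772, plus strand): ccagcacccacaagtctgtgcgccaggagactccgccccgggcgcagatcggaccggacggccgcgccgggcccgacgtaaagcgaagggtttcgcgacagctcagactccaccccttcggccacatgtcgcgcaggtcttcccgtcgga
The motifs searched were the C/EBP-ATF element TGATGNAA, through which ATF4 is known to act, and the E-box CACGTG, a binding site of Myc and related factors. Both strands were read over 250 bases before and 50 bases after the start, and the 2 motifs can overlap by their shared letters TG. The table held a promoter for 36 of the 45 tested members. TGATGNAA was found in 2 of the 36, Eef2k and Eif2s3x, and in 0 of the 5 genes that rose, while 3.97% of all 32851 promoters and 2.64% of the 6777 tested genes with a promoter held it. CACGTG was found in 10 of the 36 members and in 1 of the 5, Eif3f. It occurred in 7.15% of all promoters and in 12.1% of the tested genes. The other 9 were Eef2, Eef2k, Eif1b, Eif3a, Eif3k, Eif4a1, Eif4e, Eif4h and Eif5a, none of which was called. A match describes the letters only.

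eIF2 brings the initiator tRNA to the ribosome. Its beta subunit gene Eif2s2 (probe set 1417712_at) had log2 signals of 11.39, 11.22, 11.43 and 11.43 in controls A to D and of 11.79, 11.76, 11.62 and 12.08 in starved E to H. All starved arrays exceeded all controls, with starved H the highest and control B the lowest. The difference was 0.44 ± 0.10 (adjusted p = 0.0139), or 1.36-fold. Of its 5 tested probe sets 3 were called higher, the others of these at 0.51 and 0.47, whereas 1417713_at (0.38) and 1448820_a_at (-0.07) did not pass. The gamma subunit gene on the X chromosome, Eif2s3x, stood at 0.07 ± 0.07 (adjusted p = 0.615), with a 95% interval from -0.09 to 0.24. The Eif2s3x value rests on 1423744_x_at, a type of probe set whose probes may also match other transcripts. The Y-linked copy of this gene, Eif2s3y, had log2 signals of 3.61 to 3.83 in the 8 arrays, too dim to test. The alpha subunit gene Eif2s1, whose product carries the regulatory phosphorylation, was not analysed here.

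eIF2B is the exchange factor that phosphorylated eIF2 blocks, and 0 of its 4 measured subunit genes were called through their brightest probe set. Among all genes tested, 4.25% were called higher and 6.94% lower. Eif2b1 stood at 0.06 ± 0.15, Eif2b2 at 0.09 ± 0.08, Eif2b4 at -0.02 ± 0.10 and Eif2b5 at -0.12 ± 0.10, with adjusted p from 0.524 to 0.930. Eif2b2 and Eif2b4 encode regulatory subunits, as does Eif2b1, and Eif2b5 the catalytic subunit. A second probe set of Eif2b2, 1451136_a_at, was called higher: its signals were 10.42, 10.65, 10.58 and 10.48 in controls and 10.79, 10.89, 10.79 and 10.81 in starved arrays, a difference of 0.29 ± 0.08 (adjusted p = 0.0345). The groups did not overlap in that probe set, while the brightest one (10.94 to 11.22 in control, 11.04 to 11.18 in starved arrays) overlapped. The brightest one, 1434538_x_at, is of the type whose probes may also match other transcripts.

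Among the eIF2 kinases, Eif2ak1 encodes the heme-regulated kinase HRI, Eif2ak2 the double-stranded RNA sensor PKR, Eif2ak3 the endoplasmic reticulum kinase PERK and Eif2ak4 the amino acid sensor GCN2. Only Eif2ak1 and Eif2ak3 could be tested. Eif2ak1 stood at 0.08 ± 0.09 (adjusted p = 0.674) through its brightest probe set. Its other tested probe set, 1421900_at, read 8.22, 8.00, 8.40 and 8.44 in controls and 8.82, 8.80, 8.59 and 8.67 in starved arrays, a rise of 0.46 ± 0.12 (adjusted p = 0.0381). The 2 probe sets of this gene thus differed in their call, with control B the lowest array in both. Eif2ak3 stood at 0.07 ± 0.19 (adjusted p = 0.866), with control signals of 7.36 to 7.86 and starved signals of 7.43 to 8.11. Eif2ak2 lay just under the brightness limit of 6.61 on the log2 scale, with a mean of 6.60 and a difference of 0.12, and Eif2ak4 had signals of 3.79 to 4.45, so that the kinase for amino acid shortage has no tested value. Eif2d, an alternative tRNA carrier that also acts in recycling, stood at -0.22 ± 0.14 (adjusted p = 0.380).

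eIF3 is the largest initiation factor and a scaffold that joins the small subunit to the cap complex. Of its 11 measured subunit genes 2 rose, 0 fell and 9 did not pass, with a median of 0.13. Among all genes tested, 4.25% were called higher and 6.94% lower. Eif3c, a core subunit, had log2 signals of 10.77, 11.00, 10.58 and 10.63 in controls A to D and of 11.59, 11.56, 11.43 and 11.21 in starved E to H (probe set 1456374_x_at). The lowest starved array was above the highest control. The difference was 0.70 ± 0.11 (adjusted p = 0.00209), the largest of the 45 members in the normalized values. The suffix x_at marks probes that may also match other transcripts. The unsuffixed probe set 1415858_at gave 0.72 ± 0.09, with 10.56, 10.74, 10.66 and 10.67 in controls and 11.21, 11.38, 11.57 and 11.38 in starved arrays, and 1456083_x_at gave 0.84 ± 0.12. Both were called and their groups did not overlap. The remaining one, 1415859_at, read 8.44 in control B against 9.36 to 9.57 in the other controls, and its difference of 0.50 did not pass (adjusted p = 0.228), nor did its 0.25 without control B.

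Eif3f, which encodes a subunit with a deubiquitinase-like fold and is known as a target of the atrophy ligase atrogin-1 in muscle, had signals of 11.78, 11.70, 11.69 and 11.63 in controls and of 12.00, 11.96, 12.14 and 11.97 in starved arrays. The starved arrays were all higher than the controls, of which control A was the highest. The difference was 0.32 ± 0.06 (adjusted p = 0.00895). This call was lost with centring on the median (adjusted p = 0.169) or on the 75th percentile (0.0843) and without an intensity trend (0.0608), and the difference was -0.04 in unscaled values.

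The next members by size were Eif3h (0.23 ± 0.07, adjusted p = 0.0587), Eif3d, whose product can bind caps itself (0.20 ± 0.08, adjusted p = 0.178), and Eif3m (0.17 ± 0.10, adjusted p = 0.326). Starved arrays of Eif3h (11.61 to 11.81) lay above its controls (11.42 to 11.58), and the gene was called when control B or starved H was left out (adjusted p = 0.0324 and 0.0451). It was also called with a brightness filter at the 60th percentile (adjusted p = 0.047), array weights (0.0236) or the mean of its probe sets (0.0458). In unscaled values it stood at -0.12 (adjusted p = 0.599). The other 6, Eif3a, Eif3b, Eif3e, Eif3i, Eif3k and Eif3l, ranged from -0.04 to 0.13 and their groups overlapped.

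**Figure D2:**
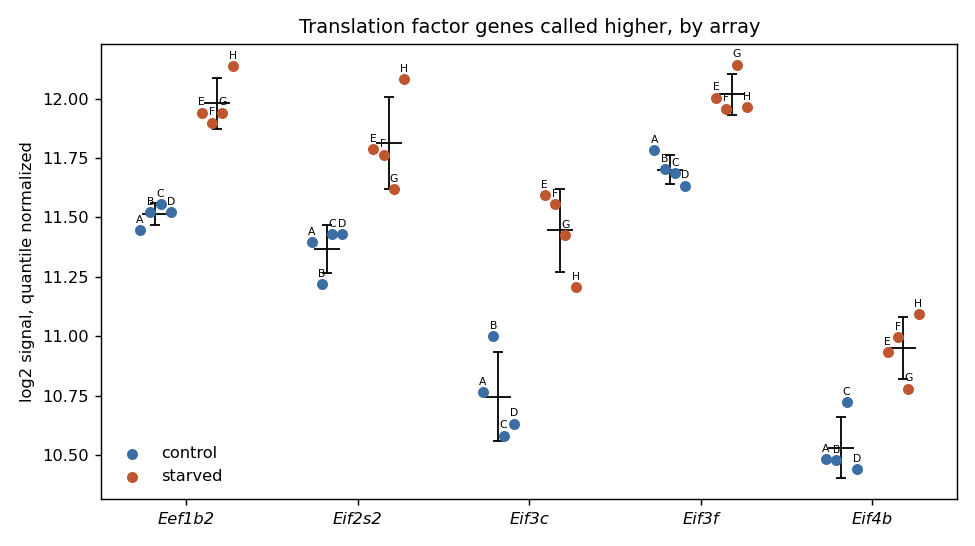
Log2 signals after quantile normalization (y axis) of the 5 genes called higher, with 1 point per array (letters A to H), blue for control and orange for starved, and black bars for the mean ± SD of 4 arrays. In each gene the lowest starved array lies above the highest control, most narrowly in Eif4b (10.78 against 10.72); heights of different genes are not comparable.

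The eIF4 group binds the cap and unwinds the message. Of its 9 measured genes 1 rose, 0 fell and 8 did not pass, where 4.25% of all genes tested were called higher and 6.94% lower. Eif4b, which stimulates the helicase eIF4A, had signals of 10.48, 10.48, 10.72 and 10.44 in controls and of 10.93, 11.00, 10.78 and 11.09 in starved arrays. Control C was the highest control and starved G the lowest starved array, and they lay close together. The difference was 0.42 ± 0.09 (adjusted p = 0.0146). A second probe set was called at 0.59 ± 0.14 (adjusted p = 0.0227), and the remaining one stood at 0.30 ± 0.09 (adjusted p = 0.064), with groups that did not overlap in either.

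The helicase genes pointed to opposite sides of 0 without passing. Eif4a1 read 12.08, 11.43, 12.06 and 12.03 in controls and 12.19, 12.35, 12.15 and 12.21 in starved arrays (0.33 ± 0.13, adjusted p = 0.156). Control B was far below the other controls in this probe set and in 1430980_a_at (10.45 against 11.70 to 11.77), and without it the difference was 0.17 (adjusted p = 0.126). Eif4a2, the paralog, read 11.71, 11.71, 11.66 and 11.64 in controls and 11.31, 11.54, 11.19 and 11.75 in starved arrays, so that starved H stood above all controls and the other 3 below them (-0.23 ± 0.11, adjusted p = 0.226). It was called lower with no scaling (-0.59, adjusted p = 0.0337) and omission of starved H (-0.33, adjusted p = 0.0382).

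The cap-binding gene Eif4e stood at 0.18 ± 0.10 (adjusted p = 0.314) and Eif4e2, a cap-binding repressor, at 0.21 ± 0.08 (adjusted p = 0.124), with starved arrays of 10.85 to 11.00 above controls of 10.57 to 10.80. Eif4e3 had the widest spread, with 6.41, 6.91, 8.27 and 7.80 in starved arrays against 7.34 to 7.83 in controls (-0.28 ± 0.34, adjusted p = 0.689). The scaffold genes Eif4g2 and Eif4g3 and the cofactor gene Eif4h lay between -0.01 and 0.16. Genes of other proteins that bind eIF4E were also members. The repressor gene Eif4ebp2 stood at 0.03 ± 0.22 and the transport factor gene Eif4enif1 at 0.04 ± 0.12. Control B read 5.52 against 7.93 to 8.01 in the other controls in the Eif4ebp2 probe set 1455575_at.

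None of the 3 tested eIF1 and eIF1A genes was called, and none of the 4 of eIF5, eIF5A, eIF5B and eIF6. By comparison, 4.25% of all genes tested were called higher and 6.94% lower. Of the eIF1 and eIF1A genes, Eif1a stood at 0.18 ± 0.12, Eif1ax at -0.15 ± 0.10 and Eif1b at -0.11 ± 0.10 (adjusted p from 0.381 to 0.580). Eif5, the GTPase activator of eIF2, stood at -0.08 ± 0.12, the subunit-joining gene Eif5b at 0.03 ± 0.13, and Eif6, which keeps free large subunits from joining, at 0.10 ± 0.09. Eif5a, whose product carries hypusine and eases peptide bond formation, stood at 0.03 ± 0.09. A dimmer Eif5a probe set read 9.94 in control B, 11.54 to 11.65 in controls A, C and D, and 11.66 to 12.02 in starved arrays, and its 0.64 did not pass (adjusted p = 0.258).

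In eEF1, 1 of 5 tested genes rose and 0 fell, against 4.25% and 6.94% of all genes tested. Eef1b2, the beta subunit that recharges eEF1A with GTP, had signals of 11.45, 11.52, 11.56 and 11.52 in controls and of 11.94, 11.90, 11.94 and 12.14 in starved arrays. The groups were well apart, and starved H was the highest array. The difference was 0.47 ± 0.07 (adjusted p = 0.0011), or 1.38-fold. Eef1d, the other exchange subunit, read 10.86 to 10.95 in controls and 11.00 to 11.30 in starved arrays (0.25 ± 0.08, adjusted p = 0.074). It was called without starved H (0.31, adjusted p = 0.0288) and with array weights (0.27, adjusted p = 0.0295), and stood at -0.11 in unscaled values. Its dimmer probe sets 1439439_x_at (0.20, adjusted p = 0.254) and 1428135_a_at (-0.12, adjusted p = 0.622) did not pass, and their groups overlapped.

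The tRNA carrier gene Eef1a1 stood at 0.15 ± 0.05 (adjusted p = 0.0978) and was called at 0.19 without starved G (adjusted p = 0.0394). Eef1a2, the carrier of mature muscle and neurons, stood at 0.06 ± 0.15, with a 95% interval from -0.27 to 0.39. Eef1akmt1, a lysine methyltransferase of eEF1A, had the lowest difference of the members (-0.31 ± 0.15, adjusted p = 0.231) and passed as a lower gene where no scaling was done (-0.69, adjusted p = 0.0424). Eef1aknmt, another methyltransferase gene, was too dim to test. Eef2 hardly varied, with 13.19 to 13.22 in controls and 13.17 to 13.30 in starved arrays (0.02 ± 0.05, adjusted p = 0.845; 95% interval -0.08 to 0.12). Its kinase gene Eef2k read 7.21 to 7.48 in controls and 7.49 to 7.83 in starved arrays, a difference of 0.25 ± 0.14 that did not pass (adjusted p = 0.297). Eef2kmt was too dim.

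**Figure D3:**
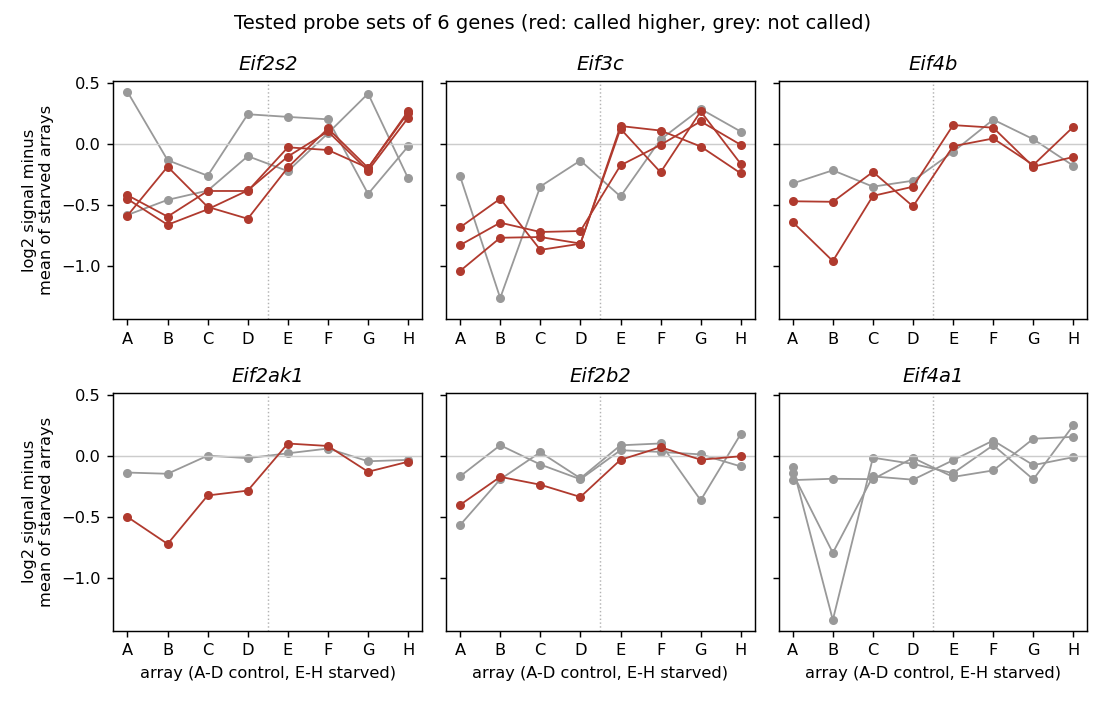
Log2 signals of each tested probe set of 6 genes (y axis, relative to that probe set's mean over the starved arrays) in arrays A to H (x axis), with lines joining the values of 1 probe set, red where it was called higher and grey where not. The 3 called probe sets of Eif3c rise together, 1 of 2 probe sets of Eif2ak1 and 1 of 3 of Eif2b2 are called, and control B lies far below the other arrays in 2 probe sets of Eif4a1 and 1 of Eif3c.

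Across the 94 tested member probe sets 12 were higher and 0 lower, whereas 4.37% of all probe sets were higher and 6.23% lower. At an unadjusted p below 0.05 the limma counts were 24 and 3, against 11.4% and 12.4% of all probe sets. The 12 belonged to 7 genes, the 5 above and Eif2ak1 and Eif2b2. For 25 members more than 1 probe set was tested, and these were all above 0 in 13 members, all below in 2 and of both signs in 10, so that the choice of probe set bears on the small differences. In 8 of the 94 probe sets control B was lower than every other array by more than 0.5, a pattern found in 3.45% of all tested probe sets for control B and in 0.413% to 1.37% for the other arrays. The cause was not tested.

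Pairs of related members were compared by the difference of their log2 signals within each array, which does not depend on the centre of the scale. Of 12 planned pairs 6 could be measured, and p-values are two-sided exact permutation values over 70 labellings, of which 0.0286 is the smallest, adjusted over the 6 pairs. Eif4a2 relative to Eif4a1 read -0.38, 0.28, -0.39 and -0.39 in controls and -0.88, -0.81, -0.95 and -0.46 in starved arrays. All starved values were lower, by 0.56 on average (exact p = 0.0286, adjusted 0.0857), with control B the highest. Without control B the difference was -0.39, and without control A, C or D it was -0.61. The unadjusted exact permutation p was 0.0571 in each case. Eef1d relative to Eef1b2 read -0.58, -0.58, -0.61 and -0.61 in controls and -0.82, -0.66, -0.64 and -1.13 in starved arrays, a difference of -0.22 (exact p = 0.0286, adjusted 0.0857). With any control left out it was -0.21 to -0.22. The unadjusted exact permutation p was then 0.143 (without A or D) or 0.171 (without B or C). The groups did not overlap in these 2 pairs, and neither passed after adjustment. Eef2k relative to Eef2 differed by 0.23 (exact p = 0.0571), Eif4ebp2 relative to Eif4e by -0.15 (exact p = 0.6), Eef1a2 relative to Eef1a1 by -0.09 (exact p = 0.657) and Eif4e2 relative to Eif4e by 0.03 (exact p = 0.8).

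Other genes of translation were counted for context, here and in the next paragraph. Of all genes tested, 4.25% were called higher and 6.94% lower. In the eIF2 phosphorylation circuit 4 of 11 tested genes rose and 0 fell. Ppp1r15a, which encodes the stress-induced subunit of the eIF2 phosphatase, read 8.87, 8.18, 8.92 and 8.34 in controls and 9.14, 9.37, 9.61 and 9.59 in starved arrays (0.85 ± 0.18, adjusted p = 0.012). Trib3 (2.72), Ddit3 (1.44) and Atf4 (0.67), known outputs of this circuit, were the others. In the list of cap-binding control and TORC1 outputs 2 of 11 rose and 1 fell. The eIF4E repressor gene Eif4ebp1 rose from 10.39 to 10.50 in controls to 11.10 to 11.48 in starved arrays (0.88 ± 0.09, adjusted p = 7.96e-05), and the poly(A)-binding gene Pabpc1 rose by 0.32 ± 0.07 (adjusted p = 0.0175). Mtor, the kinase that phosphorylates eIF4E-binding proteins, fell from 9.85 to 10.40 in controls to 9.34 to 9.68 in starved arrays (-0.49 ± 0.13, adjusted p = 0.0346), a call that was absent when its probe sets were averaged (-0.17, adjusted p = 0.325) and when any of 5 arrays, controls A or C or starved F, G or H, was left out (highest adjusted p = 0.0796). Without scaling, where the median of all tested probe sets was -0.33, Trib3 (2.37, adjusted p = 1.6e-07) and Ddit3 (1.07, adjusted p = 0.00118) were called higher. Mtor (-0.89, adjusted p = 0.00275) was called lower in these values. Ppp1r15a (0.48, adjusted p = 0.224), Atf4 (0.32, adjusted p = 0.178) and Eif4ebp1 (0.50, adjusted p = 0.0811) stood above 0 in them without passing. Pabpc1 did not pass with median centring (adjusted p = 0.0745) or without an intensity trend (0.0775).

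Among termination and recycling factors 1 of 7 rose, the release factor gene Etf1 (0.32 ± 0.08, adjusted p = 0.0357), and in eIF5A and eEF2 modification 1 of 6 rose, the hypusine hydroxylase gene Dohh (0.37 ± 0.10, adjusted p = 0.0325). Each of these 2 calls was lost when any 1 of 6 arrays was left out, with adjusted p up to 0.109. Etf1 lost its call on leaving out controls A, C or D or starved E, G or H, and Dohh on leaving out controls A, B or D or starved E, F or G. The mean of the Etf1 probe sets stood at 0.01. None of 5 mitochondrial translation factor genes and none of 3 scaffold genes of the synthetase complex was called (medians 0.06 and 0.22).

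**Figure D4:**
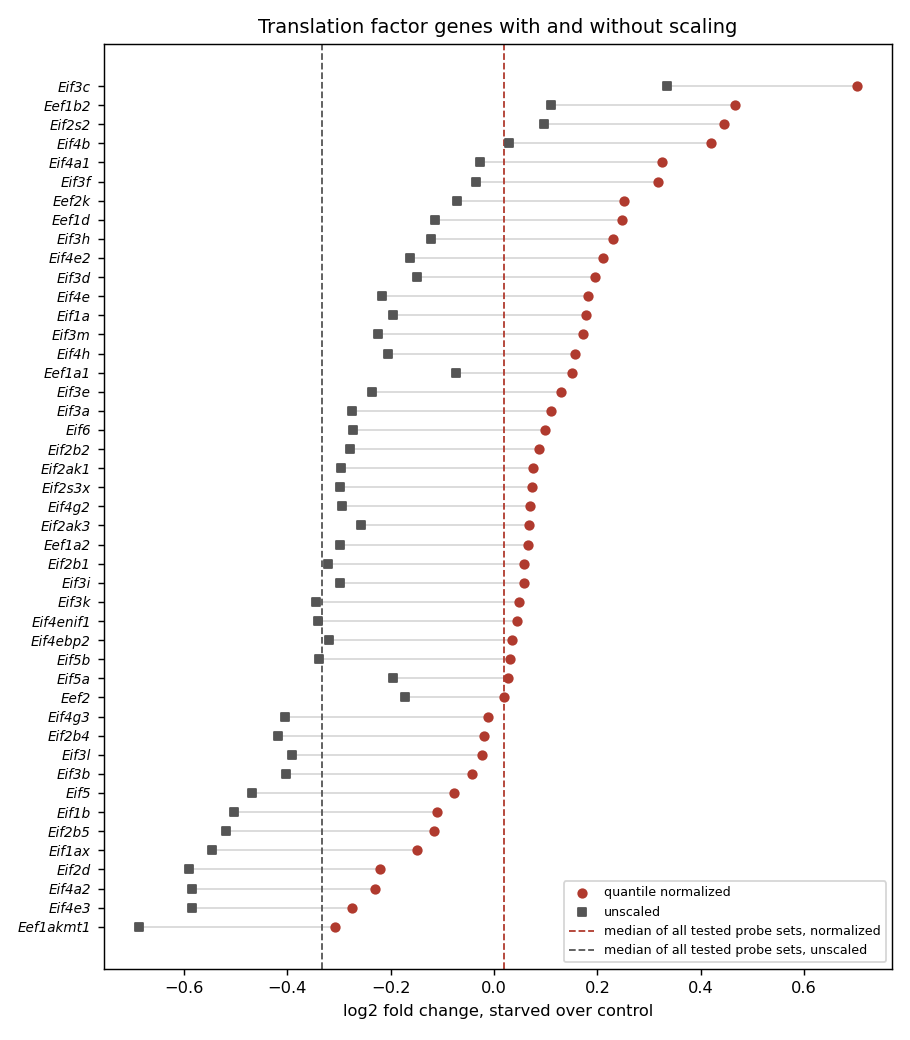
Log2 fold changes (x axis, starved over control) of the 45 tested members (y axis) in quantile-normalized values (red circles) and in unscaled intensities (grey squares), with dashed lines at the medians of all tested probe sets, 0.02 and -0.33. Eif3c stands highest in both, at 0.70 and 0.34, and 33 members are above 0 after normalization (52.3% of all genes) against 4 in unscaled values (9.30% of all genes).

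Eif3c (0.34, adjusted p = 0.186), Eef1b2 (0.11, adjusted p = 0.648), Eif2s2 (0.10, adjusted p = 0.719) and Eif4b (0.03, adjusted p = 0.925) stayed above 0 in unscaled values without passing. Eif3f did not, at -0.04 (adjusted p = 0.889). The median of the members, each read from its brightest probe set, exceeded that of all tested probe sets by 0.05 in both. These medians are over unlike units, since a gene can have several tested probe sets.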

How the data were processed

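The authors deposited 1 intensity per probe set and array on a linear scale; the steps from scan to intensity are not given in the sources. Trimmed means differed up to 1.87 times between arrays, and were 317 to 455 in control and 243 to 366 in starved arrays. The deposited intensities were therefore treated as not brought to a common scale. Unequal scaling and a shift of whole groups cannot be told apart here. Of 22690 probe sets 64 controls were left out. An offset of 10.9 (10th percentile) was added before taking log2, followed by quantile normalization, which assumes that the overall distribution does not shift between groups, and by a filter at the 40th percentile of mean signal (log2 6.61). Differences are thus of log2(value + offset). Groups came from the sample labels, which do not say whether replicates were separate cultures, so p-values may reflect technical spread only.

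The groups were tested by limma 3.58.1 under R 4.3.3, using lmFit and eBayes with an intensity trend, adjusted over all 13575 tested probe sets, and tested on simulated data. The number of arrays limits the precision. All 8 columns were used. Names came from the 2016 platform annotation, and all 114 member probe sets matched the mouse RefSeq table (GRCm38.p6) by gene number. Another 6 probe sets that name several genes along with a factor were left out. Named were every called member, every called member probe set, each eIF2, eIF2B and kinase gene, up to 3 further genes per complex by size, and up to 3 called genes per direction of each context list. The remaining members named with values, and the E-box and C/EBP-ATF searches, were chosen after their values were seen. The members and lists were chosen with earlier results of these data known. Figures used matplotlib 3.10.9.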

Additional observations from a re-analysis of the deposited data

Results flagged for a closer look

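Of 94 groups of 4 arrays tested with Dixon's criterion, 11 held an array far from the others, where chance alone gives about 1 in 20. These groups were read on the same 8 arrays and are not independent, so the 11 do not count as separate draws. In 5 of the 11 the array was control B. The 3' to 5' log2 ratio of Gapdh was 1.40 in control B and -0.22 to -0.12 in the other controls. Control B was low in log2 signal for Eif2s2 (11.22, others 11.39 to 11.43), Eif4a1 (11.43, others 12.03 to 12.08) and Eif4e2 (10.57, others 10.77 to 10.80), and high for Eif6 (10.88, others 10.68 to 10.71).

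Control C was low for Eef1a2 (8.22, others 8.73 to 8.82), Eif2s3x (10.82, others 11.03 to 11.06) and Eif4g3 (9.49, others 9.64 to 9.66), and high for Eif4b (10.72, others 10.44 to 10.48). Among starved arrays, E was high for Eif1a (9.17, others 9.08 to 9.09) and H was low for Eif6 (10.61, others 10.89 to 10.94). What set these arrays apart was not tested.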

How the results depend on the processing

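The count of 5 higher members became 0 in unscaled values and 1 with a 1.5-fold minimum (Eif3c). It was 5 to 7 when 1 array was left out. The count of 0 lower members became 2 in unscaled values and ranged from 0 to 1 over the arrays left out, the 1 being Eif4a2 without starved H. The 5 calls held whichever array was left out, with a highest adjusted p of 0.0474 (Eif4b, limma). No paired analysis was possible because the replicate letters differ between the groups.

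Unscaled log2 differences turned below 0 for Eif3f (-0.036), Eif2s3x (-0.30), Eif2b1 (-0.32), Eif2b2 (-0.28), Eif2ak1 (-0.30), Eif2ak3 (-0.26), Eef1a1 (-0.074), Eef1d (-0.11), Eef1a2 (-0.30), Eef2 (-0.17), Eef2k (-0.072), Eif1a (-0.20), Eif3h (-0.12), Eif3d (-0.15), Eif3m (-0.22), Eif4a1 (-0.028), Eif4e (-0.22), Eif4e2 (-0.16), Eif4ebp2 (-0.32), Eif4enif1 (-0.34), Eif5a (-0.20), Eif6 (-0.27), Eif3a (-0.27), Eif3e (-0.24), Eif3i (-0.30), Eif3k (-0.35), Eif4g2 (-0.29), Eif4h (-0.21), Eif5b (-0.34), Pabpc1 (-0.042), Dohh (-0.018) and Etf1 (-0.084). Signs also turned with median centring for Eif2b1 (-0.0019) and Eif4enif1 (-0.020), with array weights for Eif2b4 (0.032), Eif4ebp2 (-0.017) and Eif5a (-0.031), and with the mean of probe sets for Eif1a (-0.021) and Eif4e2 relative to Eif4e (-0.10).

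With 1 array left out, the sign turned for Eif2b1 (-0.036 to 0.21), Eif2b4 (-0.079 to 0.058), Eif2ak3 (-0.077 to 0.15), Eef1a2 (-0.074 to 0.14), Eef2 (-0.0062 to 0.040), Eif4e3 (-0.58 to 0.038), Eif4ebp2 (-0.14 to 0.22), Eif4enif1 (-0.029 to 0.13) and Eif5a (-0.073 to 0.084), none of them called. So did the log2 ratios of Eef1a2 to Eef1a1 (-0.26 to 0.00035), Eif4e2 to Eif4e (-0.062 to 0.11) and Eif4ebp2 to Eif4e (-0.30 to 0.027). The cause was not tested.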
